A study of Rattus norvegicus with 21 samples.

Results

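The livers described here came from male Sprague-Dawley rats from the Harlan stock that had received BPDP, tert-butylphenyl diphenyl phosphate, at 516.2 mg/kg, which the labels equate with 1.35 mmol/kg, and they were set against livers of rats given the corn oil vehicle alone. BPDP is a triaryl phosphate, a class that serves as flame retardants and plasticisers. Every rat was dosed by oral gavage on 4 consecutive days, and the left liver lobe was sampled on day 5. The 9 arrays, 3 at 516.2 mg/kg and 6 of the vehicle, were chosen by the dose in their titles from 21 arrays, of which the other 12 come from 3 rats each at 64.6, 129.2, 258.1 and 1032.5 mg/kg. The treatment protocol names 5 vehicle rats where 6 vehicle arrays are listed, so the labels do not settle whether each array is a separate animal, and the p-values measure the spread between these samples. The ages of the rats are not given in the labels used here.

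Each array measured 31042 probe sets, and levels are given as the deposited log2 values, on which 1 unit is a doubling. A difference between group means is called a log2 change, with its standard error (SE) from limma, and a gene is said to have risen or fallen when limma's p, after Benjamini-Hochberg adjustment across the whole array, was at most 0.05. A gene is represented by its brightest probe set, which gave 14217 genes. The 9 arrays had median levels between 6.298 and 6.392 and pairwise correlations of 0.9841 to 0.9953, taken over probe sets and so over values that are not independent. Vehicle replicate 6 had the lowest mean correlation with its own group, 0.989. The difference between the 5′ and 3′ control probe sets, a measure of RNA integrity that falls as RNA degrades, was -2.49, -1.58 and -2.83 on the 516.2 mg/kg arrays, against -2.40 to -1.68 on the vehicle arrays, so that replicates 1 and 3 at 516.2 mg/kg lay below every vehicle array.

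The liver clears foreign compounds in stages. Esterases and cytochromes P450 cleave or oxidise them, transferases attach glutathione, glucuronic acid or sulfate, and efflux pumps carry the products into blood or bile. Much of this is set by nuclear receptors and by Nrf2, a transcription factor that responds to electrophiles, while PPAR alpha, a receptor for fatty acids, controls fatty acid oxidation in rodent liver, and ATF4 controls genes of amino acid synthesis when amino acids are short.

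At 516.2 mg/kg 1270 of the 14217 genes (8.93%) differed from vehicle, 895 of them higher and 375 lower. As shares of all genes measured, 6.3% rose and 2.64% fell. The counts of gene lists below are to be read beside these shares. Most changes were small, with a median log2 change of 0.48 among the genes that rose and of -0.51 among those that fell. At least 2-fold differences were found for 63 genes that rose and 42 that fell, and at least 4-fold ones for 15 and 7. The 3 dosed arrays lay beyond all 6 vehicle arrays for 14.2% of all genes. By probe set the count was 1868, or 6.02%, with 1247 higher and 621 lower. This split depended on the normalization. It was 1645 and 421 with arrays centred on their medians, and 992 and 712 with cyclic loess. Without 516.2 mg/kg replicate 1 the count of 1868 became 631 and without replicate 3 it became 877, while without replicate 2 it became 2499.

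**Figure D1:**
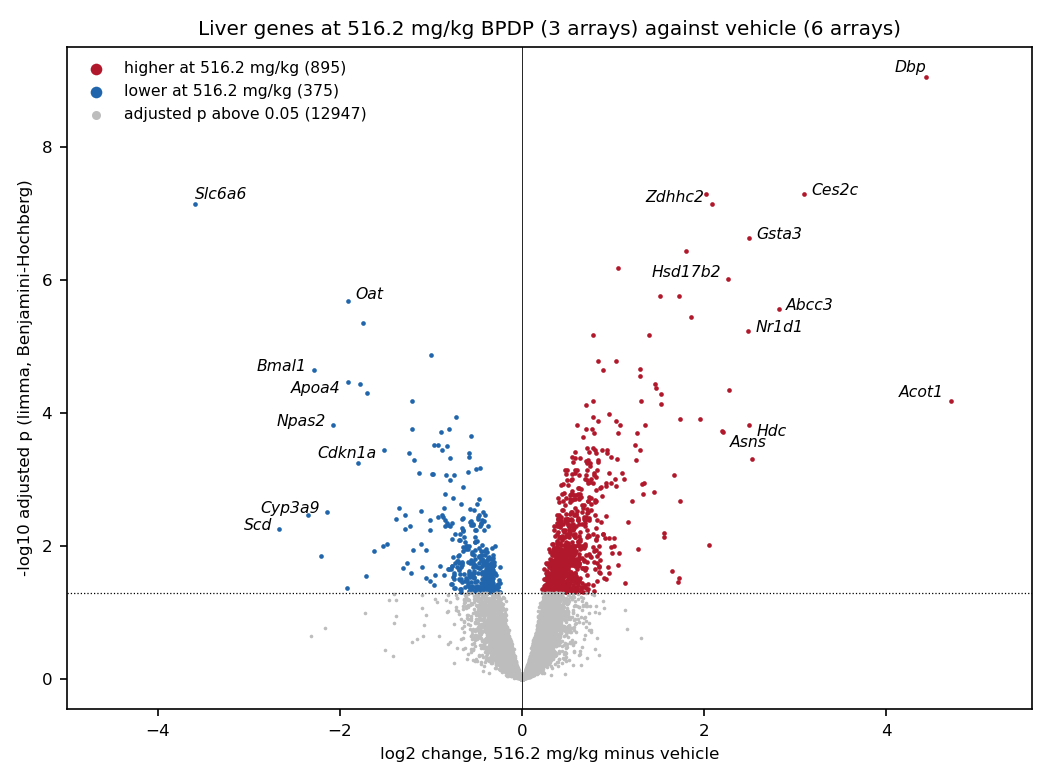
Each point is 1 of 14217 genes, with the log2 change at 516.2 mg/kg minus vehicle on the horizontal axis and the -log10 of limma's adjusted p on the vertical axis; the dotted line marks an adjusted p of 0.05. Red points (895 genes) rose and blue points (375) fell, with Acot1 and Dbp farthest to the right and Slc6a6 farthest to the left.

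A second comparison set 516.2 mg/kg against the 6 arrays of 64.6 and 129.2 mg/kg, the 2 lowest doses, so that no vehicle level entered the difference, although the vehicle arrays enter the estimate of the spread. It found 151 genes (1.06%), 128 higher and 23 lower, or 0.9% and 0.162% of all genes. Both comparisons share the 516.2 mg/kg arrays, so their values stand side by side and neither is a repeat of the other. Of the 160 genes chosen by the naming rule, 147 passed against vehicle. That number is no result, because the rule took mainly genes that had passed. With any 1 of the 9 arrays left out, 76 of the 147 calls held. Of the 34 that passed against the lower doses, 11 held in the same way. Livers are mixtures of cells, and in bulk RNA fewer cells of a type and less RNA per cell cannot be told apart.

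**Figure D2:**
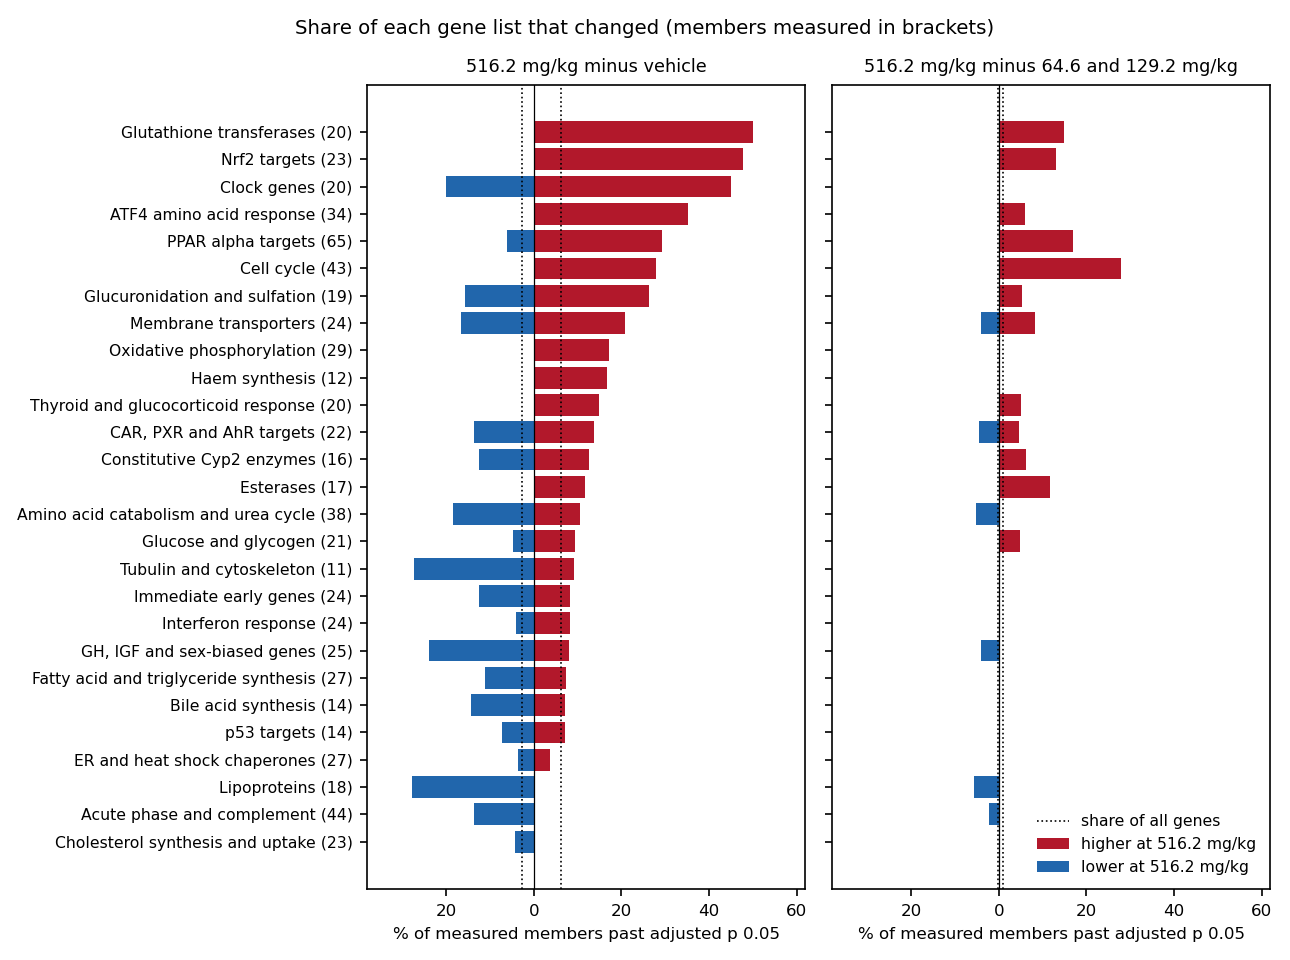
Bars give the percent of measured members of a gene list that rose (red, to the right) or fell (blue, to the left) at 516.2 mg/kg. The left panel is against vehicle and the right panel against 64.6 and 129.2 mg/kg. Dotted lines mark the percent of all genes. Lists of cell type markers and lists without a call are not drawn. Glutathione transferases, Nrf2 targets and clock genes have the longest red bars against vehicle, cell cycle genes the longest one against the lower doses, and clock genes have no bar there.

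Glutathione transferases and Nrf2 targets held many genes that rose and none that fell. Of 20 measured transferases 10 rose, with a median log2 change of 0.32 over the list beside 0.00 over all genes. Of 23 Nrf2 targets 11 rose, with a median of 0.49. Probe sets of such gene families may read near-identical members, so the member named is the one on the annotation. Gsta3, an alpha-class transferase, had levels of 10.55, 10.96 and 10.06 at 516.2 mg/kg, against a lowest, median and highest of 7.54, 8.03 and 8.39 on the vehicle arrays. All 3 dosed arrays stood clear of the vehicle arrays. Its log2 change was 2.49 ± 0.19 (SE; 5.63-fold; adjusted p 2.28e-07), and 1.70 ± 0.19 against the lower doses (adjusted p 0.000323). Gsta4, which conjugates lipid peroxidation products such as 4-hydroxynonenal, read 12.52, 12.67 and 12.74 at 516.2 mg/kg, against 11.51 to 11.70 in vehicle livers with a median of 11.56. The 2.08-fold rise (log2 change 1.06 ± 0.09, adjusted p 6.57e-07) stood beside one of 0.80 ± 0.09 against the lower doses (adjusted p 0.000289). Gstt3, of the theta class, rose 2.89-fold (adjusted p 5.19e-05), but its log2 change of 0.70 ± 0.18 against the lower doses did not pass (adjusted p 0.0703). Gstt1, Gstm5, Gstm1 and the microsomal Mgst2 rose 1.76-, 1.82-, 1.41- and 1.52-fold.

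Glutathione synthesis genes were among the Nrf2 targets that rose. Gclm, the modifier subunit of glutamate-cysteine ligase, had levels of 12.35, 12.26 and 12.23 at 516.2 mg/kg, against 10.31 to 10.997 with a median of 10.88 in vehicle livers. The dosed arrays lay within 0.12 of each other and above every vehicle array. The log2 change was 1.51 ± 0.14 (2.85-fold, adjusted p 1.73e-06), and Gclc, the catalytic subunit, rose 1.85-fold (adjusted p 0.00657). Akr7a3, an aldo-keto reductase that reduces aflatoxin dialdehyde, read 13.36, 13.65 and 13.12 at 516.2 mg/kg, against 11.20 to 11.81 with a median of 11.26 in vehicle livers. That was a 4.07-fold rise (log2 change 2.02 ± 0.14, adjusted p 4.94e-08), with 0.84 ± 0.14 against the lower doses (adjusted p 0.0068). Me1, malic enzyme, which supplies NADPH, rose 2.73-fold (adjusted p 0.00151), Ephx1, microsomal epoxide hydrolase, 1.77-fold (0.000726) and Akr7a2 1.63-fold (0.000174). Nqo1, a quinone reductase often used as the index of Nrf2, had a log2 change of 0.59 ± 0.16 (adjusted p 0.0304). That call was lost without 516.2 mg/kg replicate 1 or 2 or vehicle replicate 1, with adjusted p up to 0.118. Hmox1, haem oxygenase, another classical target, did not pass, with a log2 change of 0.09 ± 0.25 (adjusted p 0.874). Against the lower doses 3 of the 23 targets passed (Akr7a3, Gclm and Me1). There was 1 without 516.2 mg/kg replicate 3 or 129.2 mg/kg replicate 2 or 3, and there were 5 without 129.2 mg/kg replicate 1 or 64.6 mg/kg replicate 1.

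The promoter sequences of these genes show where letters of the antioxidant response element, to which Nrf2 binds, lie near the start of transcription. The core searched was TGACNNNGC on either strand, in RefSeq windows of GRCr8 from 250 bases before to 50 bases after the start. It is present in 12.2% of 27457 windows, in 3 of 21 windows of the Nrf2 targets and in 2 of the 11 that rose, so the share among these genes is close to that of all promoters. Windows of Gsta3 (chr9:31154739-31155038, plus strand) and Gclm (chr2:213031885-213032184, plus strand) are shown whole, with the core in capitals. They were picked among windows that hold the core, from a transferase and a glutathione synthesis gene that rose clear of every vehicle array. Gsta3 is not on the list of Nrf2 targets. It was searched with the 15 largest rises and 15 largest falls, where 4 of 24 windows hold the core. In Gsta3 it begins 17 bases and in Gclm 172 bases before the start, on the reverse strand in Gclm. The Me1 site (chr8:96540393-96540421, minus strand) is given with 10 bases on either side and begins 167 bases before the start.
Gsta3: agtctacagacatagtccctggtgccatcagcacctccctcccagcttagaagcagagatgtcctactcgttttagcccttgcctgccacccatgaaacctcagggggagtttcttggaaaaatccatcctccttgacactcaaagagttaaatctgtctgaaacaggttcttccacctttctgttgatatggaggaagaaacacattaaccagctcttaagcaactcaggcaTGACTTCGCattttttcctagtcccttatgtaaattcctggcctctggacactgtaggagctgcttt
Gclm: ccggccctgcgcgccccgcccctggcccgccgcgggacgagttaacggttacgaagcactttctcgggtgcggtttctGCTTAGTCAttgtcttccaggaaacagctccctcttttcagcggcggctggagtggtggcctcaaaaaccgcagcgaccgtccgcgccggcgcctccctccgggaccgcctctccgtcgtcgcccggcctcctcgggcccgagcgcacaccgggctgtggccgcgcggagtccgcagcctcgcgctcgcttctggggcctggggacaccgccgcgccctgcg
Me1: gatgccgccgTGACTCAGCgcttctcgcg
A match is a description of these letters, not a bound site, and a window without them says nothing of the factor.

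The esterases gave 1 of the largest rises. Ces2c, a carboxylesterase of the group that hydrolyses esters of foreign compounds, had levels of 11.57, 12.75 and 11.93 at 516.2 mg/kg, against 8.52, 9.12 and 9.21 as the lowest, median and highest vehicle level. The lowest dosed array was more than 2 log2 units above the highest vehicle array. Its log2 change was 3.10 ± 0.21 (8.56-fold, adjusted p 4.94e-08), and 1.58 ± 0.21 against the lower doses (adjusted p 0.00145). Both calls held without any 1 array. Of 17 esterases measured, Ces2c and Mgll, which hydrolyses monoacylglycerols, rose and none fell. The list held 29 esterases, and only 5 of its 15 carboxylesterases were measured, so the family is covered in part. Mgll had a log2 change of 0.48 ± 0.11 (adjusted p 0.0138), lost without 516.2 mg/kg replicate 1 (adjusted p 0.129). Bche, butyrylcholinesterase, a known target of organophosphates as a protein, had levels of 6.67, 6.74 and 6.72 at 516.2 mg/kg, against 6.35 to 6.69 in vehicle livers, and its log2 change of 0.19 ± 0.11 did not pass (adjusted p 0.341).

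Among membrane transporters an efflux pump rose and a taurine carrier fell, each by more than any other of the 24 measured. Abcc3, which exports glucuronides from hepatocytes to blood, had levels of 9.70, 10.16 and 9.39 at 516.2 mg/kg, against 6.65, 6.94 and 7.24 as the lowest, median and highest in vehicle livers. The groups stood more than 2 units apart. The log2 change was 2.82 ± 0.26 (7.06-fold, adjusted p 2.67e-06), with 1.77 ± 0.26 against the lower doses (adjusted p 0.00357). Slc6a6, the taurine transporter, read 6.84, 6.28 and 6.28 at 516.2 mg/kg, against 9.77, 9.97 and 10.48 in vehicle livers in the same order. The groups lay far apart, and of the 375 genes that fell none fell further. The log2 change was -3.59 ± 0.26 (12.1-fold lower, adjusted p 7.11e-08), and -2.04 ± 0.26 against the lower doses (adjusted p 0.000849). Abcg8, which with Abcg5 forms the exporter of sterols into bile, fell 2.54-fold (adjusted p 0.00266), and Abcg5 fell 2.39-fold (adjusted p 0.018, and 0.111 without 516.2 mg/kg replicate 3). In all 5 transporters rose and 4 fell. Without 516.2 mg/kg replicate 1 the rises numbered 2, and without replicate 3 the falls numbered 2.

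Cytochromes P450 and other targets of the nuclear receptors CAR, PXR and AhR moved in both directions. Of 22 measured, 3 rose and 3 fell, and without 516.2 mg/kg replicate 3 there were 2 and 2. Aldh1a1, retinal dehydrogenase, had levels of 13.71, 14.003 and 13.75 at 516.2 mg/kg, against 12.10 to 12.74 with a median of 12.42 in vehicle livers. It rose 2.64-fold (log2 change 1.40 ± 0.14, adjusted p 6.71e-06), and the change of 0.85 ± 0.14 against the lower doses passed too (adjusted p 0.00707). Cyp3a23-3a1, a PXR target, rose 1.76-fold (adjusted p 0.00144), whereas Cyp3a9 fell 4.41-fold (log2 change -2.14 ± 0.40, adjusted p 0.00304), with levels of 7.16, 5.96 and 8.34 at 516.2 mg/kg, against 8.86 to 9.79. The dosed arrays spread over more than 2 units but stayed below every vehicle array. Cyp1a2, the major CYP1 enzyme of normal liver, had levels of 12.34, 12.46 and 12.60 at 516.2 mg/kg, against 13.30, 13.45 and 13.66 as the lowest, median and highest in vehicle livers. It fell 2.01-fold (log2 change -1.004 ± 0.11, adjusted p 1.31e-05), and by 0.53 ± 0.11 on the log2 scale against the lower doses (adjusted p 0.0198, lost without 516.2 mg/kg replicate 1 or 3, with adjusted p up to 0.137). Cyp1a1, the inducible CYP1 enzyme, had a log2 change of 0.75 ± 0.25 that did not pass (adjusted p 0.08). Cyp2j4, a fatty acid epoxygenase, rose 2.46-fold (adjusted p 2.77e-05), and Cyp2c12, typical of female rat liver, rose 2.06-fold (adjusted p 0.000491). Cyp2c11, typical of male liver, had a log2 change of -0.59 ± 0.16 (adjusted p 0.0381). Its call was lost without any 1 of the 3 dosed arrays or of vehicle replicates 1, 2, 3, 4 and 6, with adjusted p up to 0.145. Among glucuronosyltransferases Ugt2b1 and Ugt2b10 rose 2.07- and 1.78-fold (adjusted p 0.000197 and 0.000129), and Papss2, which makes the sulfate donor, fell 1.38-fold (adjusted p 0.00197).

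PPAR alpha targets rose more often than they fell, as did all genes, of which 6.3% rose and 2.64% fell. Both shares were larger in this list. Of 65 measured, 19 rose and 4 fell, with a median log2 change of 0.23, and against the lower doses 11 rose and none fell, with a median of 0.24 beside 0.01 over all genes. Without 516.2 mg/kg replicate 1 or 3 the count against the lower doses was 5 or 3, and without any other array it lay between 8 and 15. Acot1, a cytosolic thioesterase that frees fatty acids from coenzyme A, had levels of 8.46, 8.32 and 8.13 at 516.2 mg/kg, against 3.39, 3.63 and 3.70 as the lowest, median and highest in vehicle livers. The vehicle levels lay below the lower quartile of all array values, 5.03, so no fold is given. limma's adjusted p was 6.51e-05 against vehicle and 0.000495 against the lower doses, whose 6 arrays read 3.23 to 3.84, as low as the vehicle. Acot2, its mitochondrial counterpart, rose 2.47-fold (log2 change 1.30 ± 0.16, adjusted p 6.51e-05), and its log2 change against the lower doses was 1.34 ± 0.16 (adjusted p 0.000414).

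Enzymes of peroxisomal and mitochondrial oxidation were among the PPAR alpha targets that rose. Ehhadh, the peroxisomal bifunctional enzyme, had levels of 13.35, 13.69 and 13.72 at 516.2 mg/kg, against 11.57 to 11.95 with a median of 11.69 in vehicle livers. The rise was 3.62-fold (log2 change 1.85 ± 0.18, adjusted p 3.54e-06), with 1.08 ± 0.18 against the lower doses (adjusted p 0.0068, and 0.0563 without 516.2 mg/kg replicate 3). Eci1 and Decr1, which let unsaturated fatty acids enter beta-oxidation, had log2 changes of 1.26 ± 0.17 (adjusted p 0.000197) and 0.84 ± 0.09 (adjusted p 1.66e-05). Cyp4a1, the fatty acid omega-hydroxylase, rose 2.52-fold (adjusted p 0.00114) with dosed levels of 13.002, 12.95 and 12.99, against 11.31 to 11.91 in vehicle livers. Vnn1, pantetheinase, rose 3.32-fold (adjusted p 0.000124) and Aqp7, a glycerol channel, 2.88-fold (adjusted p 7.24e-05). Aqp7 also passed against the lower doses (log2 change 1.12 ± 0.19, adjusted p 0.00724). Cpt1a, which starts mitochondrial oxidation, read 11.64, 11.57 and 11.58 at 516.2 mg/kg, against 11.19 to 13.16, and did not pass (log2 change -0.33 ± 0.29, adjusted p 0.564).

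Of the 4 PPAR alpha targets that fell, Pdk4 was the only one in the group of mitochondrial oxidation and ketogenesis, where 7 of 19 members rose, and the other 3 were in the group of lipid handling and signals, where 4 of 21 rose. Pdk4, which switches off pyruvate dehydrogenase in fasting, had levels of 8.73, 8.03 and 8.25 at 516.2 mg/kg, against 9.51, 10.22 and 10.77 as the lowest, median and highest in vehicle livers. It fell 3.49-fold (log2 change -1.80 ± 0.28, adjusted p 0.000553), and its log2 change against the lower doses, -0.56 ± 0.28, did not pass (adjusted p 0.323). Plin2, the coat protein of lipid droplets, and Angptl4, an inhibitor of lipoprotein lipase, had log2 changes of -1.21 ± 0.15 (adjusted p 6.51e-05) and -1.22 ± 0.31 (adjusted p 0.0251, up to 0.0921 without 516.2 mg/kg replicate 1 or 2 or vehicle replicate 1), and Fabp3, a fatty acid binding protein, fell too. None of the 4 passed against the lower doses, where Angptl4 had a log2 change of 0.32 (adjusted p 0.63).

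Lipoprotein genes fell in a few members, and genes of lipid synthesis moved in both directions. Of 18 lipoprotein genes 5 fell and none rose, and there were 3 falls without 516.2 mg/kg replicate 2 or 3 or vehicle replicate 2 or 3. Apoa4, an apolipoprotein that rises with fat load, had levels of 10.94, 11.42 and 9.95 at 516.2 mg/kg, against 12.58 to 12.85 with a median of 12.66 in vehicle livers. The vehicle arrays lay close together and the dosed arrays well below them. The fall was 3.75-fold (log2 change -1.91 ± 0.22, adjusted p 3.39e-05), with -1.13 ± 0.22 against the lower doses (adjusted p 0.0158, lost without 516.2 mg/kg replicate 1 or 3). Of 27 genes of fatty acid and triglyceride synthesis 2 rose and 3 fell, with a median log2 change of 0.05. Of all genes 6.3% rose and 2.64% fell, so the rises in this list were near the share of all genes. There was 1 rise without 516.2 mg/kg replicate 1 or 3, and 1 fall without replicate 1. Lpin2, a phosphatidate phosphatase of triglyceride synthesis, had a log2 change of 0.93 ± 0.14 (adjusted p 0.000403) on its brightest probe set and of -0.12 on a second one. Pparg, a lipogenic nuclear receptor, had one of 0.80 ± 0.19 (adjusted p 0.0173), lost without 516.2 mg/kg replicate 1 or 3, with adjusted p up to 0.14. Scd, stearoyl-CoA desaturase, read 7.85, 9.67 and 8.09 at 516.2 mg/kg, against 9.76, 11.10 and 12.26. Its log2 change of -2.66 ± 0.54 passed (adjusted p 0.0055) but did not without 516.2 mg/kg replicate 1 (0.059). Elovl5, a fatty acid elongase, fell 1.49-fold (adjusted p 0.000459), and Pklr, pyruvate kinase of liver, had a log2 change of -0.66 ± 0.16 (adjusted p 0.0172), lost without 516.2 mg/kg replicate 1 or 3. Insig2, which holds back cholesterol synthesis, fell 2.43-fold (adjusted p 0.00555), whereas none of 17 genes of cholesterol synthesis passed limma's test, and over the whole list of 23 genes of synthesis and uptake 4 had an unadjusted p under 0.05. Fasn, fatty acid synthase, had a log2 change of 0.01 ± 0.33 (adjusted p 0.988), and Cyp7a1, the rate-limiting enzyme of bile acid synthesis, one of 0.83 ± 0.40 (adjusted p 0.241). Nr0b2, the repressor SHP, rose 2.94-fold (adjusted p 0.00628) against vehicle and had a log2 change of 0.06 ± 0.32 against the lower doses.

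Several genes of amino acid synthesis under ATF4 rose. Of 34 members measured 12 rose and none fell, with a median log2 change of 0.36, and the count was 6 without 516.2 mg/kg replicate 1 and 8 without replicate 3. Psat1 and Phgdh, enzymes of serine synthesis, and Asns, asparagine synthetase, led them. Asns had levels of 10.35, 10.35 and 9.84 at 516.2 mg/kg, against 7.51, 7.95 and 8.48 as the lowest, median and highest in vehicle livers. Its log2 change was 2.20 ± 0.30 (4.60-fold, adjusted p 0.000192). Psat1 read 10.89, 10.70 and 10.16 at 516.2 mg/kg, against 7.79 to 8.63 with a median of 8.35 in vehicle livers, and rose 4.85-fold (log2 change 2.28 ± 0.27, adjusted p 4.52e-05). For both genes the groups lay well apart. Against the lower doses their log2 changes were 1.38 ± 0.30 and 1.25 ± 0.27 (adjusted p 0.0338 and 0.03), and each call was lost when any 1 of 6 arrays was left out, the 3 of 516.2 mg/kg among them. Phgdh rose 3.18-fold (adjusted p 0.000841), Trib3, a pseudokinase induced by ATF4, 2.51-fold (0.00162), and Sars1, seryl-tRNA synthetase, 1.66-fold (0.0018). Atf4 itself had a log2 change of 0.23 ± 0.17 (adjusted p 0.482), and Ddit3, a factor of the unfolded protein response, one of 0.17 ± 0.15 (adjusted p 0.543). Among 27 chaperones of the endoplasmic reticulum and heat shock Herpud1 had a log2 change of 0.51 ± 0.12 (adjusted p 0.0159, and 0.0995 without 516.2 mg/kg replicate 1). Hspa5, the chaperone BiP, had one of -0.35 ± 0.10 (adjusted p 0.0441, up to 0.261 without 516.2 mg/kg replicate 1 or 3 or vehicle replicate 1, 3 or 5), and no other member passed.

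The core of the element bound by CEBP and ATF factors, TGATGNAA on either strand, lies in 3.82% of all windows, in 9 of 30 windows of the ATF4 list and in 2 of the 11 windows of members that rose. Both sites of members that rose are shown, with the core in capitals as it reads on the gene's strand. The Trib3 site (chr3:161275537-161275564, minus strand) begins 21 bases and the Mars1 site (chr7:65023753-65023780, minus strand) 17 bases before the start.
Trib3: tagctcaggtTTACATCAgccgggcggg
Mars1: cccgttccggTTGCATCAgcgtgggctc
Both hold the core in reverse orientation.

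Catabolic enzymes of amino acids and the urea cycle fell in 7 of 38 members and rose in 4, and the rises numbered 2 without 516.2 mg/kg replicate 1 or 3. Oat, ornithine aminotransferase, had levels of 8.86, 9.07 and 9.47 at 516.2 mg/kg, against 10.57, 11.04 and 11.62 as the lowest, median and highest in vehicle livers. It fell 3.75-fold (log2 change -1.91 ± 0.18, adjusted p 2.03e-06), and by 1.06 ± 0.18 on the log2 scale against the lower doses (adjusted p 0.0068, and 0.0515 without 516.2 mg/kg replicate 1). Ass1, argininosuccinate synthase of the urea cycle, read 12.02, 12.68 and 12.04 at 516.2 mg/kg, against 13.05 to 13.44 with a median of 13.19. The fall was 1.98-fold (log2 change -0.99 ± 0.16, adjusted p 0.000816), and every dosed array lay below every vehicle array. Its change of -0.82 ± 0.16 against the lower doses (adjusted p 0.0158) was lost without 516.2 mg/kg replicate 1 or 3. Kynu, kynureninase, fell 1.56-fold (adjusted p 0.00738), and Bckdha, of branched-chain amino acid breakdown, rose 1.596-fold (adjusted p 0.00266) on its brightest probe set but had a log2 change of -0.01 on a second one. Pck2, mitochondrial phosphoenolpyruvate carboxykinase, rose 1.68-fold (adjusted p 0.000561), while Pck1, its cytosolic form, had a log2 change of -0.32 ± 0.18 (adjusted p 0.325).

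Several genes of growth hormone and IGF signalling and of secreted plasma proteins fell. Igfbp3, the main carrier of IGF in plasma, had levels of 8.70, 9.12 and 9.38 at 516.2 mg/kg, against 9.98 to 10.58 with a median of 10.26 in vehicle livers. It fell 2.30-fold (adjusted p 0.000173) and Igfbp2, another carrier, 2.19-fold (adjusted p 0.000784). Igf1 itself did not pass, with a log2 change of -0.15 ± 0.08 (adjusted p 0.297). Socs2, a feedback inhibitor of growth hormone signalling, had a log2 change of -1.62 ± 0.36 (adjusted p 0.0117), lost without 516.2 mg/kg replicate 1 (0.0533) or 3 (0.0802). Of the 25 genes of growth hormone, IGF and sex-biased expression 6 fell and 2 rose. Of all genes 2.64% fell and 6.3% rose, so the rises in this list were near that share and the falls above it. The falls numbered 2, 4 and 3 without 516.2 mg/kg replicates 1, 2 and 3 in turn. Of 44 acute phase and complement genes 6 fell, also a larger share than of all genes, and none rose. Their median log2 change was -0.14. Without 516.2 mg/kg replicate 1 there were 2 falls and without replicate 3 there were 4. Serpind1, heparin cofactor II, fell 1.38-fold (adjusted p 0.000677). Alb, albumin, read 15.35, 15.33 and 15.34 at 516.2 mg/kg, against 15.34 to 15.35, which is near the top of the array's range.

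Cell cycle genes rose in part. Of 43 measured 12 rose against vehicle and none fell, with a median log2 change of 0.33. Against the lower doses 12 rose too, with a median of 0.54, and the difference between the comparisons was not tested. Neither count was steady. Against vehicle it was 6, 9 and 3 without 516.2 mg/kg replicates 1, 2 and 3 in turn, and 6 or 7 without vehicle replicate 1, 2, 3 or 4. Of the 12 calls against the lower doses none was left without 516.2 mg/kg replicate 3, whereas 9 to 15 passed without any other array. Cdkn3, a phosphatase of cyclin-dependent kinases, had levels of 8.52, 8.49 and 8.69 at 516.2 mg/kg, against 5.31, 7.02 and 8.003 as the lowest, median and highest in vehicle livers. The dosed arrays lay close together, above a wide spread of vehicle arrays. Its log2 change was 1.65 ± 0.42 (adjusted p 0.0235), lost without 516.2 mg/kg replicate 1 (0.0936) or 3 (0.0969). The lower doses differed from each other, with levels of 4.60, 4.97 and 5.06 at 64.6 mg/kg, a mean below the lower quartile of all array values, and of 8.05, 7.12 and 7.25 at 129.2 mg/kg. No log2 change is given against them, and limma's adjusted p was 0.00901 (0.059 without 516.2 mg/kg replicate 3). Rfc4, a subunit of the clamp loader of DNA replication, rose 1.42-fold (adjusted p 0.00389), a call that held without any 1 array. Mki67, the proliferation marker, read 5.96, 6.44 and 6.49 at 516.2 mg/kg, against 4.45 to 6.31 with a median of 5.43. It did not pass against vehicle (adjusted p 0.0854). The arrays of the lower doses read 4.33 to 5.29, in part below the lower quartile of all array values, and limma's adjusted p against them was 0.0155 (0.105 without 516.2 mg/kg replicate 3). Cdkn1a, the inhibitor p21, fell 2.87-fold against vehicle (log2 change -1.52 ± 0.22, adjusted p 0.000361) and had a log2 change of 0.26 ± 0.22 against the lower doses (adjusted p 0.574).

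Clock genes differed strongly from vehicle, and none passed against the lower doses. The hepatic clock is a loop in which Bmal1 with Clock or Npas2 drives the Per, Cry and Nr1d genes, which repress it, and the factors Dbp, Tef and Hlf carry the rhythm to other genes. Of 20 measured 9 rose and 4 fell against vehicle, with 2 of the 4 activators falling and 5 of the 6 output genes rising. Against the lower doses the count was 0 by limma's test, and 2 had an unadjusted p under 0.05. Dbp had levels of 10.65, 10.40 and 9.61 at 516.2 mg/kg, against 5.44, 5.77 and 6.10 as the lowest, median and highest in vehicle livers. Its log2 change was 4.44 ± 0.23 (21.7-fold, adjusted p 8.72e-10) and 0.10 ± 0.23 against the lower doses (adjusted p 0.863). By dose, its mean level was 5.78 in vehicle livers, then 10.21, 10.04, 10.31, 10.22 and 10.57 in rising order of dose, so the vehicle arrays stood apart from all 5 doses.

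Other clock genes also differed from vehicle and not detectably from the lower doses. Bmal1 read 6.22, 5.87 and 6.65 at 516.2 mg/kg, against 8.08 to 8.84 with a median of 8.55 in vehicle livers, and fell 4.86-fold (adjusted p 2.22e-05). Npas2 fell 4.21-fold (adjusted p 0.000149), and Nfil3, a repressor at Dbp sites, fell 3.35-fold (adjusted p 4.45e-06). Nr1d1, a nuclear receptor that represses Bmal1, read 9.55, 8.54 and 8.69 at 516.2 mg/kg, against 5.77 to 6.81 with a median of 6.62, and rose 5.59-fold (adjusted p 5.79e-06). Per3 and Usp2 rose 3.87- and 4.58-fold, though a second, dimmer probe set of Per3 had a log2 change of -0.05. Log2 changes against the lower doses were -0.50 for Bmal1, -0.68 for Npas2, 0.10 for Nfil3, -0.29 for Nr1d1, -0.31 for Per3 and 0.21 for Usp2, each with an adjusted p above the threshold (0.231 to 0.797). Per1 and Per2 did not pass against vehicle (adjusted p 0.23 and 0.204). Hsd17b2, which inactivates sex steroids, Tubb2a, a beta-tubulin, and Lgalsl, a galectin-like protein, share this pattern. Hsd17b2 rose 4.81-fold to levels of 13.07, 12.79 and 12.65 at 516.2 mg/kg, against 10.37 to 11.02, while Tubb2a and Lgalsl fell 3.43- and 3.26-fold. Their log2 changes against the lower doses were -0.15, -0.20 and -0.01. For genes of this kind a change with treatment and a difference of the vehicle group cannot be told apart.

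**Figure D3:**
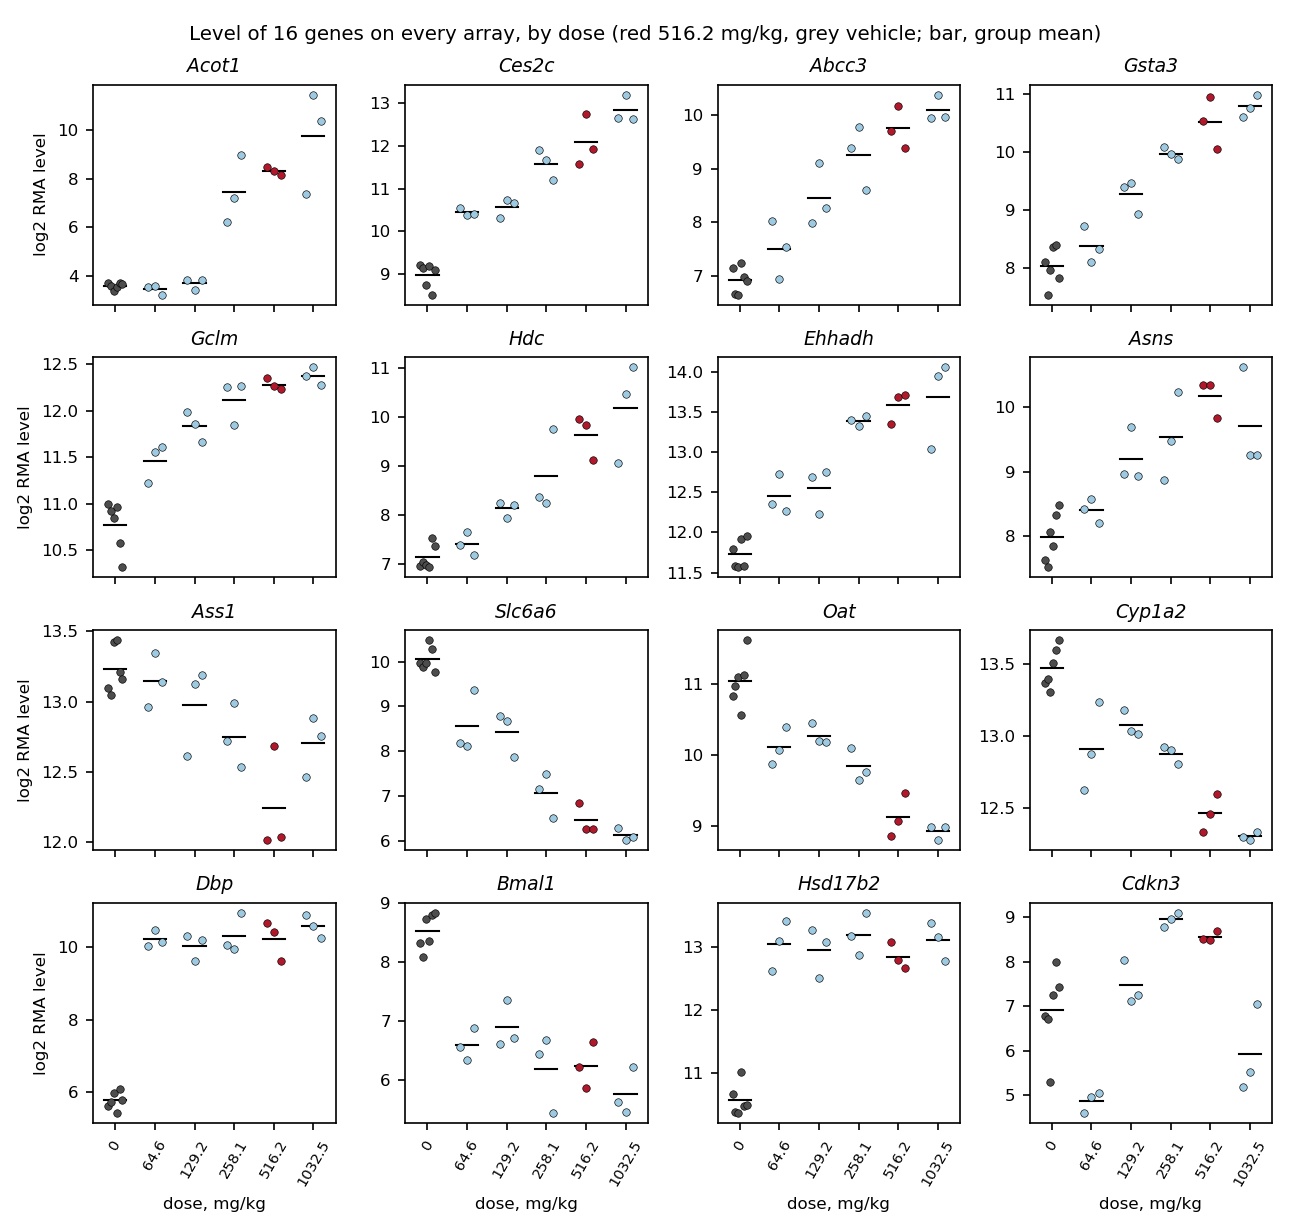
The log2 level of 16 genes is shown for each of the 21 arrays by dose, with the vehicle at 0 mg/kg, the 516.2 mg/kg arrays in red and a bar at each group mean. Acot1 is near its vehicle level up to 129.2 mg/kg and high from 258.1 mg/kg, Slc6a6 and Oat are lower at higher doses, and Dbp, Bmal1 and Hsd17b2 stand apart from vehicle at every dose.

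Signal-response genes and regulators gave small numbers of calls, beside 6.3% of all genes that rose and 2.64% that fell. Of 24 immediate early genes 2 rose and 3 fell (1 and 1 without 516.2 mg/kg replicate 1). The share that rose was near that of all genes, and the share that fell was above it. None passed against the lower doses, where 4 had an unadjusted p under 0.05. Egr1, an early growth response factor, read 6.91, 6.28 and 7.03 at 516.2 mg/kg, against 7.77, 8.81 and 10.38 as the lowest, median and highest in vehicle livers. The vehicle arrays were widely spread, and the log2 change of -2.21 ± 0.51 passed (adjusted p 0.0143, and 0.0572 without 516.2 mg/kg replicate 1). Klf15, a factor induced by glucocorticoids, had levels of 10.14, 9.80 and 10.22 at 516.2 mg/kg, against 8.84 to 9.48 in vehicle livers. Its log2 change was 0.93 ± 0.16 (adjusted p 0.00122), with -0.17 against the lower doses (adjusted p 0.599). Irf1, an interferon regulatory factor, had a log2 change of -1.01 ± 0.20 against vehicle (adjusted p 0.00406), also with any 1 array left out, and of -0.09 against the lower doses. Of the 24 interferon response genes 2 rose and 1 fell, both near the shares of all genes. The rises numbered 0 without 516.2 mg/kg replicate 1 or 3, 4 without replicate 2 and 1 without vehicle replicate 3, 4 or 5. Mt2A, a metallothionein, read 13.997, 13.92 and 13.85 at 516.2 mg/kg, against 10.43 to 14.02, so the groups overlapped, and its call (adjusted p 0.0305) was lost without any 1 of 5 arrays.

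Energy and housekeeping lists gave few calls in number. The shares that rose among oxidative phosphorylation and haem genes were above the 6.3% of all genes. Of 29 genes of oxidative phosphorylation 5 rose and none fell, with a median log2 change of 0.09, and 1 was left without 516.2 mg/kg replicate 1 or 3, 2 without vehicle replicate 2 and 3 without 516.2 mg/kg replicate 2 or vehicle replicate 1, 3 or 4. Ndufv1, a subunit of complex I, read 11.50, 11.50 and 11.42 at 516.2 mg/kg, against 10.997 to 11.26 (log2 change 0.35 ± 0.08, adjusted p 0.0113). Among 31 proteasome genes none passed limma's test, and 4 had an unadjusted p under 0.05. Of 12 genes of haem synthesis and breakdown Uros and Blvrb rose, with none left without 516.2 mg/kg replicate 1, 1 without replicate 3 and 3 without vehicle replicate 3. Of 14 p53 targets Mdm2, which degrades p53, had a log2 change of 0.45 ± 0.10 (adjusted p 0.0134, and 0.0834 without 516.2 mg/kg replicate 1), and Cdkn1a fell as given above.

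No probe set separated 516.2 mg/kg from the neighbouring doses. Against 258.1 mg/kg no probe set passed limma's test (0%), where 2140 had an unadjusted p under 0.05 and the smallest adjusted p was 0.452, that of Gsta4. For Slc6a6 the log2 change between 516.2 and 258.1 mg/kg was -0.60 ± 0.30, for Oat -0.71 ± 0.20, for Zdhhc2 0.63 ± 0.17, for Ces2c 0.50 ± 0.25 and for Acot1 0.84 ± 0.67. Between 1032.5 and 516.2 mg/kg none passed either (0%), with 2886 at an unadjusted p under 0.05 and a smallest adjusted p of 0.0625. Without 516.2 mg/kg replicate 2 there were 86. Cdkn3 averaged 5.92 at 1032.5 mg/kg, against 8.57 at 516.2 mg/kg (log2 change -2.65 ± 0.48, adjusted p 0.121), and Cyp1a1 averaged 8.22, against 6.64 (log2 change 1.58 ± 0.28, adjusted p 0.121). A p above the threshold does not show that the doses act alike.

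Some of the largest changes were in genes on none of the lists. Hdc, histidine decarboxylase, which makes histamine, had levels of 9.95, 9.83 and 9.12 at 516.2 mg/kg, against 6.93 to 7.54 with a median of 7.01 in vehicle livers, and rose 5.63-fold (adjusted p 0.000149). Zdhhc2, a palmitoyltransferase, read 8.71, 8.89 and 9.12 at 516.2 mg/kg, against 6.298 to 7.13 with a median of 6.84. It rose 4.24-fold (adjusted p 7.11e-08), and its change of 1.79 ± 0.15 on the log2 scale against the lower doses had the smallest adjusted p of that comparison, 5.18e-06. Zfp354a, a zinc finger protein, rose 5.75-fold (adjusted p 0.00049) and did not pass against the lower doses (log2 change 0.77 ± 0.38, adjusted p 0.319). Stac3, an adaptor known from muscle, had levels of 8.85, 8.58 and 9.70 at 516.2 mg/kg, against 10.27 to 12.34 with a median of 11.44. It fell 5.10-fold (adjusted p 0.00339).

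Markers of stellate cells fell, and those of Kupffer cells lay below vehicle without passing. All 12 measured Kupffer cell and macrophage markers had log2 changes below 0, with a median of -0.52, but none passed limma's test, and 9 had an unadjusted p under 0.05. Without 516.2 mg/kg replicate 1 or vehicle replicate 1 or 6 there was 1 call, and without vehicle replicate 5 there were 2. Their mean level was 9.26 to 9.72 at 516.2 mg/kg, against 9.65 to 10.12 in vehicle livers. Of 20 stellate cell and fibroblast markers 9 fell, with a median of -0.55. Their mean level was 7.23 to 7.57 in dosed livers, against 7.72 to 8.14, so the groups did not overlap. Without 516.2 mg/kg replicate 1 there were 2 falls and without replicate 3 there were 6. Pdgfra and Pdgfrb, growth factor receptors of these cells, fell 1.74- and 1.81-fold (adjusted p 0.000174 and 0.00266) whichever array was left out. Of 12 endothelial markers Kdr and Stab1 fell, with none left without 516.2 mg/kg replicate 1 and 1 without any other array. Hepatocyte markers had a mean level of 13.61 to 13.68, against 13.73 to 13.89, and 1 of 11, Ass1, fell. These tissues are livers by their markers, with albumin near the top of the range on every array.

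Pericentral hepatocyte markers fell in 5 of 10 members (3 without 516.2 mg/kg replicate 1), and their mean level was 9.79 to 9.82 in dosed livers, against 10.19 to 10.44 in vehicle livers. Glul, glutamine synthetase of the hepatocytes next to the central vein, read 11.77, 11.79 and 11.74 at 516.2 mg/kg, against 12.04 to 12.52 with a median of 12.32, and fell 1.44-fold (adjusted p 0.00287). Periportal markers had a mean level of 11.33 to 11.49, against 11.42 to 11.62, which overlap. Epcam, a marker of bile duct cells, rose 1.65-fold (adjusted p 0.00311), the 1 of 7 markers of these cells that passed. Red cell markers had mean levels of 6.90 to 8.47, against 7.45 to 8.22. Of 15 lymphocyte markers 1 fell, and their mean level was 5.595 to 5.745, against 5.749 to 6.11 in vehicle livers, where the groups all but touched. That count was 0 without 516.2 mg/kg replicate 1 or 3 or vehicle replicate 3, and 2 without vehicle replicate 5. None of 8 neutrophil markers passed limma's test, and 1 had an unadjusted p under 0.05. The part of cell makeup and RNA integrity in these results was not tested. With the integrity measure as a covariate 126 of the 147 named calls held. Over all probe sets 1411 then passed against vehicle, where 1868 passed without it.

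**Figure D4:**
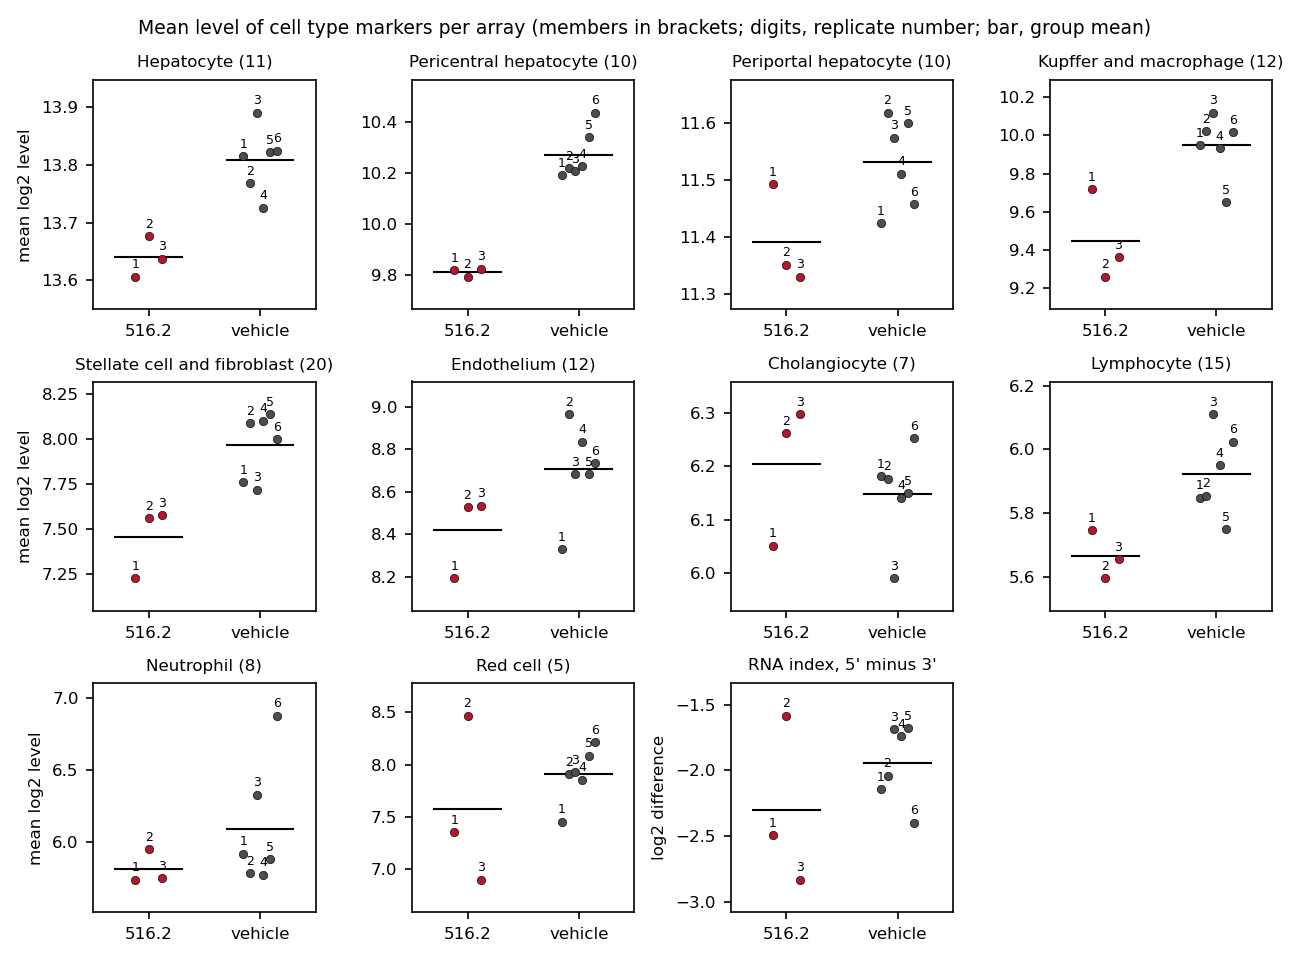
Mean log2 level of each cell type's markers on each array (the number of genes in brackets), with 516.2 mg/kg in red at the left of each panel, vehicle in grey at the right, replicate numbers beside the points and a bar at the group mean; the last panel shows the 5′ minus 3′ control difference. Pericentral, hepatocyte and stellate markers, and narrowly lymphocyte markers, do not overlap between the groups, and replicates 1 and 3 at 516.2 mg/kg have the lowest 5′ minus 3′ differences.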

How the data were processed

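Liver RNA was amplified from 100 ng, biotin-labelled and hybridised to arrays, per the labels' protocols. The deposited log2 values were made by RMA, per the submitters' processing notes, a method that corrects background, quantile-normalizes arrays and summarises probes; the software behind it is not given in the sources used here. Quantile normalization gives all arrays nearly the same distribution, so a change in total RNA cannot be seen, and summarised values carry no detection calls. Genes were named through the platform annotation, updated by Entrez number or accession to GRCr8 symbols: of 31042 probe sets tested, 20826 name 1 gene, 436 several and 9780 none, and 57 control probe sets were left out. All 21 arrays were fitted with limma 3.58.1 in R 4.3.3, with 1 coefficient per dose, no covariate and Benjamini-Hochberg adjustment over all probe sets. The procedure was tried on simulated data with independent noise, which held no outlying array and no effect of RNA integrity. A gene with a group mean under 5.03, the lower quartile, is given by levels without a fold.

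Members, gene lists and tests were chosen with earlier results of these data known. The named genes are the 15 largest rises and 15 largest falls without overlap, up to 8 members of each list and 20 index genes. The rises, falls and list members were taken among genes that passed, with the brightest member where part of a list had none. Further list members, such as Eci1, Plin2, Angptl4, Hmox1, Atf4 and Mki67, were chosen after their values were seen. Alternatives changed the normalization, weights, filter, block, covariate, threshold, probe set and arrays included. Sample sizes of 3 and 6 arrays limit the precision.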

Additional observations from a re-analysis of the deposited data

Results flagged for a closer look

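In 8 of the 160 named genes 1 of the 6 vehicle arrays stood apart from the other vehicle arrays by Dixon's test, where chance gives about 1 in 20, and none of the genes' groups of 3 dosed arrays can be tested this way. Vehicle replicate 3 was low for Zdhhc2 (log2 level 6.298) and Masp1 (10.56), and vehicle replicate 2 was low for Per3 (4.83) and high for Stab1 (8.49). Vehicle replicate 4 was high for Akr7a3 (11.81). Vehicle replicate 6 was high for Ndufa9 (11.47) and low for Sdsl (7.93), and vehicle replicate 1 was low for Hbb (12.34). The rises of Zdhhc2, Akr7a3 and Per3 passed with any 1 array left out, whereas the calls of Stab1 and Sdsl were lost whichever of the 9 arrays was left out.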

How the results depend on the processing

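Of the 147 named calls against vehicle 66 held in all 19 settings tried, 81 were lost in at least 1 and none reversed on the brightest probe set. Leaving out 516.2 mg/kg replicate 1 lost 59, replicate 3 lost 43 and replicate 2 lost 21; the cause was not tested. A second probe set passed in the same direction for 15 of 37 genes and in the opposite one for none, but its log2 change turned to -0.049 for Per3, -0.12 for Lpin2 and -0.0145 for Bckdha.

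Against vehicle, 1868 probe sets passed, 1247 higher and 621 lower. A fold of at least 1.5 as well left 630, 408 higher and 222 lower, by construction. With arrays centred on their medians there were 1645 higher and 421 lower, and with cyclic loess 992 and 712. The titles give replicate numbers without saying that they pair the samples. Between arrays of the same number, deviations from the group means had correlations of 0.0054, -0.115 and -0.2068. These few values do not settle it. The replicate block gave 1347, with 410 lower. Leaving out 1 array gave 631 to 2499, with 877 without 516.2 mg/kg replicate 3, the ends being 516.2 mg/kg replicates 1 and 2, and with 409 to 1589 higher and 222 to 910 lower.

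In the comparison with the lower doses 229 passed, 177 higher and 52 lower. The integrity covariate gave 149 (117 higher, 32 lower), median centring 361 (318 higher), array weights 771 (533 higher, 238 lower) and the fold minimum 128 (107 higher, 21 lower). The lower calls numbered 92 with cyclic loess, 21 with only the compared groups fitted and 87 with the replicate block. Leaving out 1 array gave 45 (516.2 mg/kg replicate 3) to 739 (516.2 mg/kg replicate 2), with 79 without 516.2 mg/kg replicate 1, 130 to 135 without 129.2 mg/kg replicate 3 or 64.6 mg/kg replicate 2 or 3, 363 without 64.6 mg/kg replicate 1 and 477 without 129.2 mg/kg replicate 1, and with 32 to 466 higher and 13 to 273 lower.

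Against 258.1 mg/kg the count was 0 in every setting but 1, with 1 probe set lower without 516.2 mg/kg replicate 2 (leave-out range 0 to 1). Between 1032.5 and 516.2 mg/kg it was 0, with 1 lower on 1 probe set per gene, 1 lower with an intensity trend, 10 with array weights (4 higher, 6 lower) and 0 to 86 with 1 array left out (86 without 516.2 mg/kg replicate 2, 8 without 1032.5 mg/kg replicate 3 and 2 without vehicle replicate 3; 0 to 39 higher, 0 to 47 lower). Leaving out arrays of the doses other than 516.2 mg/kg and vehicle was added after seeing the data.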

Other observations

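Outside the gene lists, several genes with large changes were picked after their values were seen. Cryl1, which oxidises gulonate in the glucuronate pathway, had levels of 10.66, 10.72 and 10.23 at 516.2 mg/kg, against 8.37 to 9.15 with a median of 8.74 in vehicle livers. The groups stood more than 1 unit apart, with a log2 change of 1.80 ± 0.15 (adjusted p 3.67e-07). Set against the lower doses it was 0.75 ± 0.15 (adjusted p 0.0163, and 0.1 without 516.2 mg/kg replicate 1). Pir, the iron-binding nuclear protein pirin, read 8.62, 9.01 and 8.69 at 516.2 mg/kg, against 7.30 to 7.69 with a median of 7.49 in vehicle livers. Its log2 changes were 1.30 ± 0.14 against vehicle (adjusted p 2.19e-05) and 0.96 ± 0.14 against the lower doses (adjusted p 0.00357), and both held without any 1 array. Aig1, an esterase of fatty acid esters of hydroxy fatty acids, had a log2 change of 1.46 ± 0.17 (adjusted p 3.59e-05), but a second, dimmer probe set had a log2 change of -0.09. Snx10, a sorting nexin, had a log2 change of 1.74 ± 0.31 (adjusted p 0.00213).

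Some receptors and membrane proteins fell. Avpr1a, the vasopressin receptor of hepatocytes, had levels of 9.88, 9.81 and 9.97 at 516.2 mg/kg, against 10.76 to 11.39 with a median of 11.10 in vehicle livers. All dosed arrays lay below all vehicle arrays, with a log2 change of -1.19 ± 0.18 (adjusted p 0.000502). Slc34a2, a sodium-phosphate cotransporter, had a log2 change of -1.39 ± 0.27 against vehicle (adjusted p 0.00389) and of -0.13 ± 0.27 against the lower doses (adjusted p 0.845). Cav2, a caveolin, fell on the brightest 2 of its 4 probe sets, by 1.23 and 1.30 on the log2 scale (adjusted p 0.00503 and 0.00095). Its dimmer probe sets are not given here. Dapk1, a protein kinase linked to cell death, fell on 2 probe sets by 1.28 and 1.05 (adjusted p 0.00339 and 6.51e-05). Against the lower doses Avpr1a, Cav2 and Dapk1 did not pass (adjusted p 0.0826, 0.0628 and 0.451). Tsc22d1, a leucine zipper protein, fell by 0.97 ± 0.16 on the log2 scale against vehicle (adjusted p 0.000816) and by 0.90 ± 0.16 against the lower doses (adjusted p 0.00849), while a second, dimmer probe set did not pass against vehicle (log2 change -0.17). These adjusted p-values are limma's.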
